A study of Mus musculus with 8 samples.

Results

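The genes described here encode 9 transcription factors of the pluripotency network: Pou5f1, Nanog, Sall4, Esrrb, Tfcp2l1, Zfp42, Klf2, Klf4 and Klf5. They were chosen by name, and each was followed through every array feature (probe set) annotated to it and to no other gene. This gave 17 probe sets of the 45101 on the array and 9 of the 18193 genes with a probe set of their own. All 9 genes had at least 1 such probe set. Pou5f1, Nanog, Zfp42 and Klf2 had 1 probe set, Klf4 and Sall4 had 2, and Esrrb, Tfcp2l1 and Klf5 had 3.

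Messenger RNA of 3 wild-type mouse cell types was measured on Affymetrix arrays. The ES group (3 arrays) came from V6.5, a single line of embryonic stem cells. They had been grown with leukemia-inhibiting factor (LIF) and 15% serum, first on irradiated embryonic fibroblasts and then through passages on 0.2% gelatin without these feeders. NPC (3 arrays) were neural precursor cells made from ES cells in culture, by 4 days as embryoid bodies and 5 to 7 days of selection in ITSFn medium, and then kept in FGF2 and EGF2 as the labels spell them. MEF (2 arrays) were primary mouse embryonic fibroblasts grown in 10% serum. Neither the age of the embryos nor the culture behind each array is given, so the p-values speak of the spread from array to array, which may be technical, and the number of arrays limits the precision.

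Pluripotent cells are held in their state by a network of transcription factors that bind each other's genes. Oct4 (the product of Pou5f1), Sox2 and Nanog form its centre, and Sall4, a zinc finger protein, binds with them. Esrrb, Tfcp2l1, Zfp42 and the Krüppel-like factors Klf2, Klf4 and Klf5 belong to the naive state of the early epiblast and of ES cells kept in LIF, and several of them are reached by LIF through Stat3. Outside pluripotent cells, Klf4 and Klf5 are also known from epithelia and Klf2 from endothelium.

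The sequences before the start of 4 of the genes are shown as examples, because the proteins of the network bind DNA letters that can be looked for there. These 4 do not stand for all 9 genes, as Tfcp2l1, not shown, had none of the words marked here. Whether such words have a part in the levels of the genes was not tested. The printed sequences are the 250 bases before the annotated RNA start, 5′ to 3′ on the strand of the gene, from RefSeq on build GRCm38.p6. The Nanog stretch is chr6:122707315-122707564 on the plus strand, Zfp42 is chr8:43307010-43307259 on the minus strand, Pou5f1 is chr17:35505782-35506031 on the plus strand and Klf4 is chr4:55532476-55532725 on the minus strand. Capitals mark exact matches, on either strand, to the POU word ATGCAAA, the SOX word CATTGT, the nuclear receptor word AAGGTCA, the GC box GGGCGG and the CACCC box CCACCC, and matches that touch or overlap run together.
Nanog: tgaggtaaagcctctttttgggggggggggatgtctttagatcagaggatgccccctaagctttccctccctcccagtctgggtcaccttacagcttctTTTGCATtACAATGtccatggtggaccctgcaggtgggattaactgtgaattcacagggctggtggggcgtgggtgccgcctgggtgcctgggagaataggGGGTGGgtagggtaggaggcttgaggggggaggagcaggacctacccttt
Zfp42: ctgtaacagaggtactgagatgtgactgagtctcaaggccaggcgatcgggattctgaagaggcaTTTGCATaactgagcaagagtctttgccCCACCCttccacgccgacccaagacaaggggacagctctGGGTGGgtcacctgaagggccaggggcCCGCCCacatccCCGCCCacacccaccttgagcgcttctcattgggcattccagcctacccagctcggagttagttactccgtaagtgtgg
Pou5f1: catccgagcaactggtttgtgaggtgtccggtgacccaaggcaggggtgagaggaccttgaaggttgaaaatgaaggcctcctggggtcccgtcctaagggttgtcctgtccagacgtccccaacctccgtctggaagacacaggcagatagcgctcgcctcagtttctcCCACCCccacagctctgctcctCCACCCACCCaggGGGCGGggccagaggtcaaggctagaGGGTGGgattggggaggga
Klf4: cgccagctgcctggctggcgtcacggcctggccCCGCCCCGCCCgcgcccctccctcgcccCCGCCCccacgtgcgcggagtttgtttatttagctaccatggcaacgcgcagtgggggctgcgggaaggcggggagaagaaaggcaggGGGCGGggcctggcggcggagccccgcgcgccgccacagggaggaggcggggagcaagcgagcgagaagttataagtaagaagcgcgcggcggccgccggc

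Of the 9 genes, 7 had an entry in the set of RefSeq start sequences used here, with 10 starts between them. Klf5 and Sall4 had none in that set, though RefSeq lists both genes. In Nanog the SOX word lay 1 base from the POU word on the minus strand, beginning at position -151 from the printed start. This arrangement occurred in 2 of 32851 mouse starts (0.00609%), and both were starts of Nanog. The windows before these starts overlap, and both matches are the same stretch of DNA. The arrangement was searched because it is the known composite Oct4 and Sox2 element of this gene, so its presence is a description. The POU word alone was in 4.12% of all starts, and among the 9 genes also at position -185 of Zfp42. The SOX word was in 10.7% of all starts and occurred in another start of Pou5f1. The GC box, in 32.7% of all starts, had 4 matches in Klf4, 2 in Klf2, 2 in Zfp42 and 1 in Pou5f1. The CACCC box, in 28.1% of all starts, is the kind of sequence that Krüppel-like factors bind, and it had 4 matches in Pou5f1, 2 in Zfp42 and 1 each in Klf2, in both starts of Esrrb and in 1 start of Nanog. The nuclear receptor word (4.08% of all starts) was in none of the 10 starts. The TATA word TATAAA, which is not capitalised, was in 12.4% of all starts and among the 9 genes only in Tfcp2l1, at position -28. A match describes the letters in this window and not a bound site.

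Levels are given as log2(intensity + 16) after quantile normalization, so a signal of 0 lies at the bottom of the scale and folds of dim genes are understated. A gene is read from its brightest probe set. The median of all probe sets on an array was 5.30, with 25% of them under 4.48 and 25% over 7.23. A gene was called changed at a limma adjusted p under 0.05, over all 18193 genes, with a log2 difference of at least 1 in size.

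All 9 genes fell from ES cells to NPC, and all 9 fell from ES cells to MEF. Over all genes, 12.9% were called lower in NPC, 12.8% in MEF and 7.77% in both. The ES arrays are shared by these comparisons. The median log2 difference of the 9 genes was -5.47 in NPC and -5.73 in MEF, where the medians of all genes were -0.05 and -0.04. Pou5f1, Nanog, Zfp42, Sall4 and Tfcp2l1 went from high levels in ES cells to near the bottom of the scale in both other cell types. Esrrb did so in MEF and was at about the median of all probe sets in NPC. Klf4 kept intermediate levels in both, Klf2 did so on all arrays but NPC 1, and Klf5 did so in MEF. In RNA from a mass of cells, fewer cells of a type and less RNA per cell cannot be told apart.

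**Figure D1:**
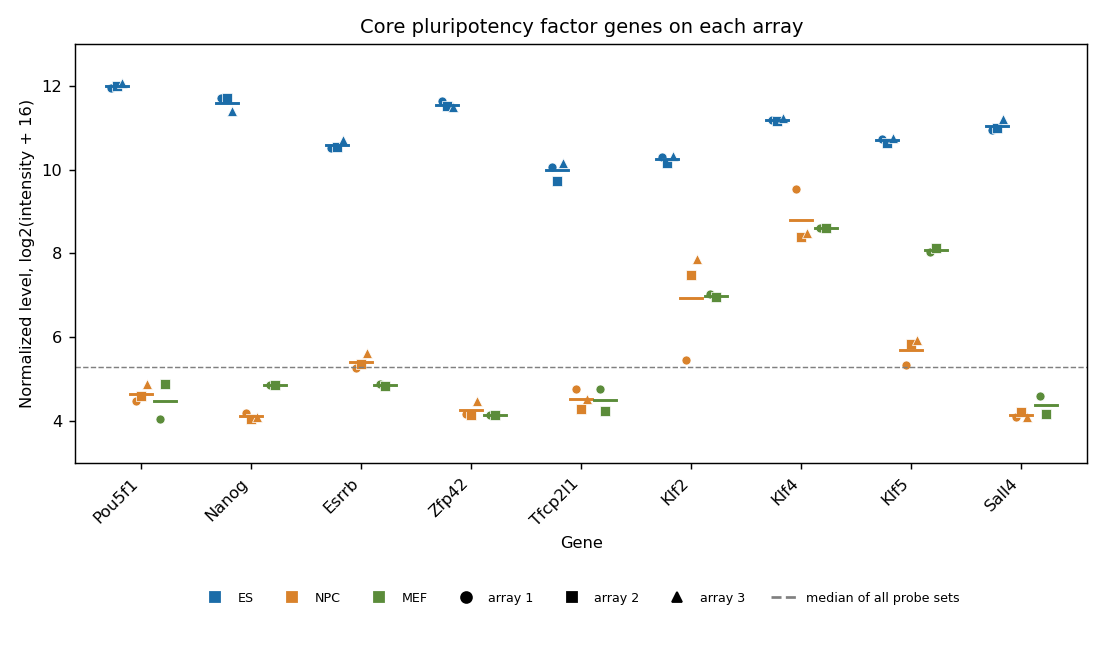
Level of each of the 9 genes on each array, as log2(intensity + 16) after normalization, with the array number as the marker shape and the cell type as the colour; short lines are group means and the dashed line is the median of all probe sets. The ES arrays lie between 9.74 and 12.08 for all 9 genes, and Klf2 and Klf4 in NPC are the values most spread within a group.

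Pou5f1, the POU domain factor Oct4, was at 11.95, 11.99 and 12.08 on ES arrays 1 to 3, at 4.47, 4.59 and 4.88 on NPC arrays 1 to 3, and at 4.05 and 4.89 in MEF. The deposited intensity behind these levels was 3332 to 3987 in ES cells, 5.74 to 11.8 in NPC, and 0.726 and 18.2 in MEF. The ES arrays stood far above all others, and the NPC values lay inside the range of the MEF values. Pou5f1 was 164-fold lower in NPC (log2 difference -7.36, SE 0.208, limma adjusted p = 1.63e-08) and 186-fold lower in MEF (-7.54, SE 0.232, limma adjusted p = 4.03e-08). MEF and NPC did not differ beyond their spread (-0.18, 95% interval -0.71 to 0.35, limma adjusted p = 0.609).

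Nanog, a homeodomain factor, was at 11.70, 11.71 and 11.39 in ES cells, at 4.20, 4.04 and 4.10 in NPC and at 4.87 and 4.86 in MEF. Its intensity was 2010 to 3388 in ES cells, 0.359 to 2.17 in NPC, and 16.8 and 17.4 in MEF. Both MEF values were above all NPC values, and both groups were far below the ES arrays. The fall from ES cells was 180-fold to NPC (log2 difference -7.49, SE 0.13, limma adjusted p = 1.63e-09) and 107-fold to MEF (-6.74, SE 0.145, limma adjusted p = 1.07e-08). The difference of 0.75 between MEF and NPC (limma adjusted p = 0.00285) stayed under the minimum of 1. It depended on the pseudocount, at 2.69 and called with a pseudocount of 1 and at 0.24 with one of 64.

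Sall4, a zinc finger protein that binds with Oct4 and Nanog, was at 10.94, 10.99 and 11.21 in ES cells, at 4.10, 4.22 and 4.10 in NPC, and at 4.60 and 4.17 in MEF. It was 120-fold lower in NPC (-6.90, SE 0.153, limma adjusted p = 5.54e-09) and 101-fold lower in MEF (-6.66, SE 0.171, limma adjusted p = 1.64e-08). Of the MEF values, 1 lay within the NPC range, and the difference of 0.24 between MEF and NPC did not pass (95% interval -0.14 to 0.63). Its dimmer probe set had log2 differences of -3.60 in both NPC and MEF, from 7.94 to 8.09 on the ES arrays to between 4.08 and 4.70 elsewhere.

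Esrrb, an orphan nuclear receptor, had 3 probe sets, and all of them fell in both comparisons. The brightest was at 10.53, 10.55 and 10.70 in ES cells, at 5.27, 5.35 and 5.63 in NPC, and at 4.88 and 4.84 in MEF. This is a 36.2-fold difference for NPC (-5.18, SE 0.13, limma adjusted p = 8.39e-09) and a 53.2-fold difference for MEF (-5.73, SE 0.145, limma adjusted p = 1.64e-08). By this probe set, NPC lay above MEF on every array, by a log2 difference of 0.56 in size (MEF minus NPC -0.56, limma adjusted p = 0.0139), under the minimum of 1. With a pseudocount of 64 the difference was -0.24. On the other probe sets NPC and MEF overlapped, with differences of -0.18 and -0.53 (limma adjusted p = 0.56 and 0.145). The other probe sets of Esrrb ran from 8.16 to 8.66 in ES cells and fell, with log2 differences of -3.37 and -2.70 in NPC and of -3.55 and -3.23 in MEF.

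Tfcp2l1, a CP2 family factor that LIF induces through Stat3, was at 10.07, 9.74 and 10.17 in ES cells, at 4.76, 4.28 and 4.53 in NPC, and at 4.76 and 4.24 in MEF. NPC and MEF values overlapped and differed by -0.03 (95% interval -0.54 to 0.49, limma adjusted p = 0.946). The gene was 44.3-fold lower in NPC (-5.47, SE 0.202, limma adjusted p = 7.26e-08) and 45.1-fold lower in MEF (-5.50, SE 0.226, limma adjusted p = 2.08e-07). These falls rest on 1 of its 3 probe sets. The other two were between 4.03 and 4.63 on all 8 arrays, ES arrays included, and gave no call in any comparison.

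Zfp42, also called Rex1, is a zinc finger protein related to Yy1 and a marker of the naive state. It was at 11.64, 11.52 and 11.49 in ES cells, at 4.17, 4.13 and 4.48 in NPC, and at 4.15 and 4.15 in MEF. All arrays outside ES cells were near the bottom of the scale, and the MEF values lay inside the NPC range. The gene was 156-fold lower in NPC (-7.29, SE 0.134, limma adjusted p = 2.29e-09) and 169-fold lower in MEF (-7.40, SE 0.15, limma adjusted p = 9.24e-09). MEF and NPC differed by -0.11 (95% interval -0.45 to 0.23).

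Where a gene ends near the bottom of the scale, the size of its fall depends on the pseudocount. With pseudocounts of 1 and 64 the log2 difference of Nanog in NPC was -10.48 and -5.60, that of Zfp42 -9.61 and -5.50, and that of Pou5f1 -8.72 and -5.83. The order of these genes by the size of the fall is therefore not read here. Pou5f1 and Nanog have processed copies elsewhere in the mouse genome, and whether their probes also match those copies was not tested.

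Klf4, a Krüppel-like factor that LIF induces through Stat3, was lower in both other cell types without reaching the bottom of the scale. Its brightest probe set was at 11.19, 11.17 and 11.22 in ES cells, at 9.53, 8.40 and 8.49 in NPC, and at 8.60 and 8.60 in MEF. The intensities were 1782 to 2405 in ES cells, 606, 250 and 288 in NPC, and 593 and 591 in MEF. The ES arrays were above all others, and NPC 1 was above NPC 2, NPC 3 and both MEF arrays. Klf4 was 5.24-fold lower in NPC (-2.39, SE 0.252, limma adjusted p = 4.79e-05) and 6.05-fold lower in MEF (-2.60, SE 0.282, limma adjusted p = 5.97e-05). Its other probe set had the same order of groups, at 9.14, 9.15 and 9.27 in ES cells, 7.53, 6.84 and 6.30 in NPC, and 6.81 and 6.91 in MEF, and fell by 2.29 and 2.32.

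Klf2 is a Krüppel-like factor that also serves endothelium. It was at 10.31, 10.16 and 10.33 in ES cells, at 5.45, 7.49 and 7.87 in NPC, and at 7.02 and 6.95 in MEF. The intensities were 941 to 1283 in ES cells, 26.7, 128 and 185 in NPC, and 176 and 167 in MEF. NPC 1 was the lowest array of all, and NPC 2 and NPC 3 were above both MEF arrays. The gene was 10.0-fold lower in NPC (-3.33, SE 0.514, limma adjusted p = 0.000541) and 9.69-fold lower in MEF (-3.28, SE 0.574, limma adjusted p = 0.0012).

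Klf5, a Krüppel-like factor of ES cells and epithelia, was at 10.73, 10.64 and 10.74 in ES cells, at 5.34, 5.83 and 5.93 in NPC, and at 8.02 and 8.14 in MEF. The intensities were 1275 to 1751 in ES cells, 23.6, 33.6 and 40.7 in NPC, and 388 and 422 in MEF. The 3 groups did not overlap, with MEF between ES cells and NPC. The gene was 32.2-fold lower in NPC (-5.01, SE 0.149, limma adjusted p = 2.10e-08) and 6.18-fold lower in MEF (-2.63, SE 0.167, limma adjusted p = 2.12e-06).

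NPC 1 stood apart within its group, and Klf2 and Klf4 are where this touched the 9 genes most. Over all probe sets NPC 1 correlated at 0.967 and 0.969 with the other NPC arrays, and these at 0.987 between themselves. The SD among the NPC arrays was 1.30 for Klf2 and 0.63 for Klf4, where the median over all genes was 0.211, and from 0.07 to 0.31 for the other 7 genes. NPC 1 was low for Klf2 and high for Klf4, and high for both probe sets of Klf4. Without NPC 1 the fall of Klf2 in NPC was 6.06-fold (-2.60, SE 0.111, limma adjusted p = 4.02e-08) and that of Klf4 6.81-fold (-2.77, SE 0.0571, limma adjusted p = 4.01e-10). All 9 genes were still called lower in NPC without it, with folds of 29.1 to 191 for the other 7. Among the ES arrays the SD of the 9 genes ran from 0.026 to 0.23.

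**Figure D2:**
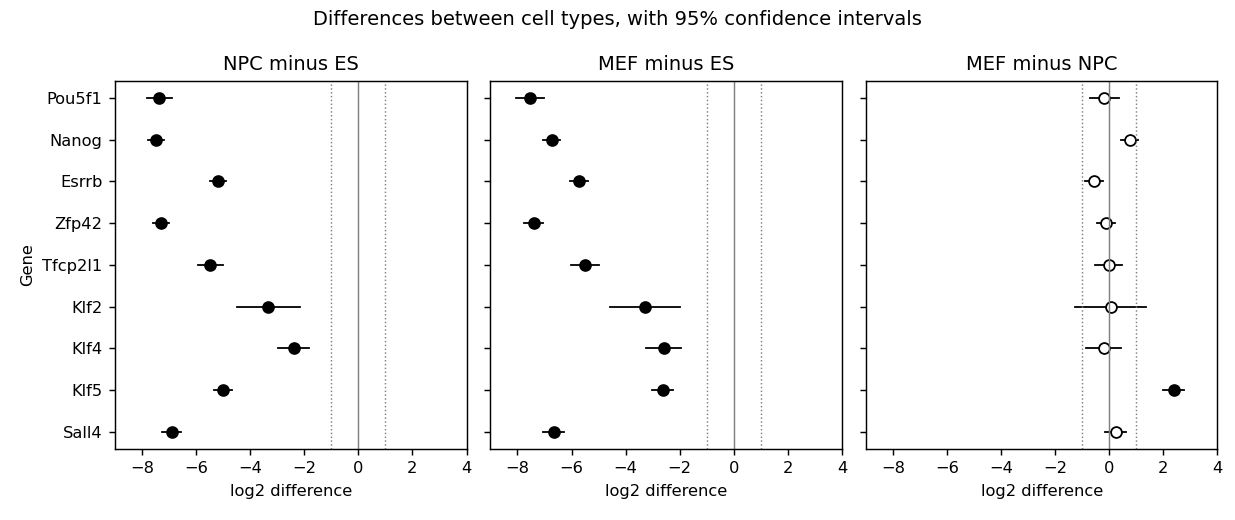
Log2 differences between cell types for the 9 genes, with 95% confidence intervals; filled points were called, open points were not, and dotted lines mark the minimum of 1. All points in the panels against ES cells are filled and negative, and in MEF minus NPC Klf5 at 2.38 is the filled point.

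Between MEF and NPC, 1 of the 9 genes was called, where 18.5% of all genes were called in either direction, so the count says nothing particular about these genes. The called gene was Klf5, 5.21-fold higher in MEF (2.38, SE 0.167, limma adjusted p = 5.71e-06). The differences of the other genes ran from -0.56 for Esrrb to 0.75 for Nanog. For Klf2 the difference was 0.05 with a 95% interval of -1.25 to 1.36, and without NPC 1 it was -0.70 (limma adjusted p = 0.000958), under the minimum. For Klf4 it was -0.21 (95% interval -0.85 to 0.44), and it turned to 0.16 without NPC 1, to 0.37 with median centring and to 0.72 at the deposited scaling, with no call in any of these.

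The probe sets of Klf5 did not give 1 value. The brightest, whose suffix _a_at marks transcripts of the same gene that share the sequence, gave the values above. The second was at 6.79, 6.89 and 7.23 in ES cells, 5.07, 5.24 and 5.43 in NPC, and 6.07 and 5.94 in MEF, in the same order of groups. It fell by 1.72 in NPC, while its difference of -0.96 in MEF (limma adjusted p = 0.0033) and that of 0.76 between MEF and NPC (limma adjusted p = 0.0141) were under the minimum. The third lay between 4.33 and 5.04 on all arrays and gave no call. With the mean of its probe sets, Klf5 was 0.97 higher in MEF than in NPC and was not called.

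Over all probe sets of the 9 genes, 14 of 17 were lower in NPC and 13 of 17 in MEF, where 8.86% and 9.54% of all probe sets were called lower, and no probe set of the 9 genes was higher in either. The 3 not called in NPC were the dim ones of Tfcp2l1 and Klf5, and in MEF the second Klf5 probe set joined them. Between MEF and NPC, 1 of 17 was called, the brightest of Klf5. The share of all probe sets called between them was not computed, so this count is not read further. Over all genes that share was 18.5%.

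**Figure D3:**
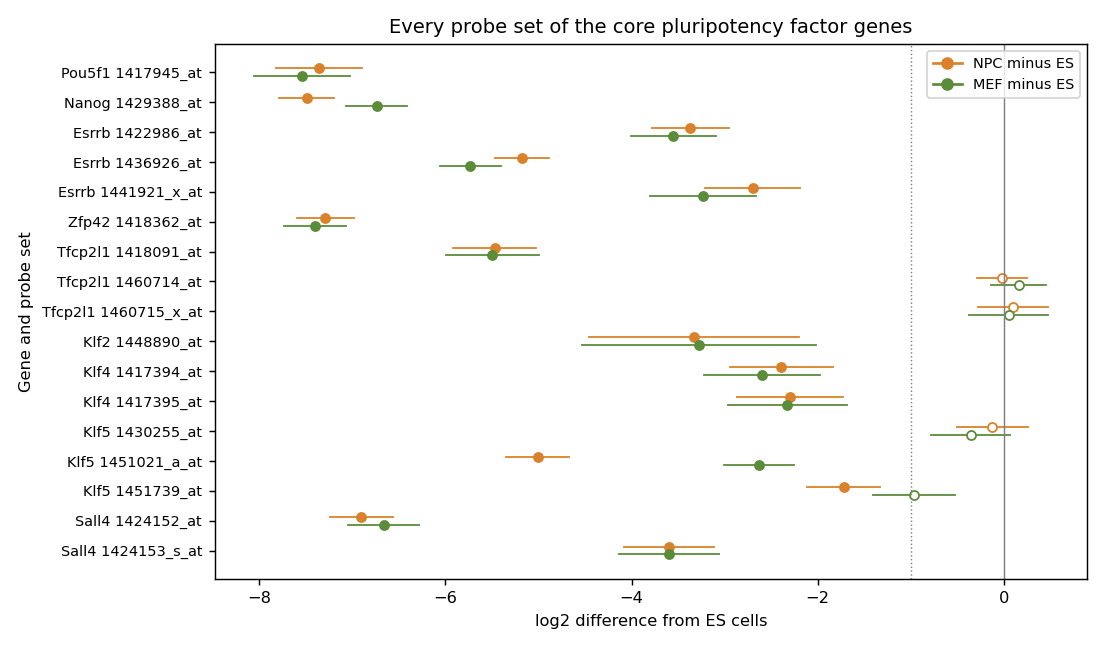
Log2 difference from ES cells of each of the 17 probe sets of the 9 genes, with 95% confidence intervals; filled points were called and the dotted line marks a difference of -1. The intervals of 3 probe sets, of Tfcp2l1 and Klf5, include 0 in both comparisons, and all others lie below 0 in both.

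The cell type labels were checked against marker lists. The mean level of 6 ES cell markers was 11.8 in ES cells and 4.79 and 4.72 in NPC and MEF, and all 6 fell in both. Of 5 measured neural precursor markers all rose in NPC, with Nes, for nestin, 15.9-fold higher (limma adjusted p = 2.79e-07). In MEF, 2 of the 5 were also called higher than in ES cells, Nes (7.76-fold) and Fabp7 (4.19-fold), and 2 lower. All 5 were lower in MEF than in NPC. All 6 fibroblast markers were higher in MEF, and their mean on the ES arrays was 5.87 to 5.90, against 12.1 in MEF. On the NPC arrays this mean was 4.66 to 4.71, and 4 of the 6 were called lower in NPC than in ES cells. The reason for this was not tested. Among all genes, 10% were called higher and 12.9% lower in NPC than in ES cells, and 12.2% and 12.8% in MEF. Of 6 macrophage markers, 5 were higher in MEF than in ES cells, with list means of 7.08 and 7.11 on the MEF arrays, 4.59 to 4.86 in ES cells and 4.83 to 4.86 in NPC. The part of these in the MEF levels of Klf2, Klf4 and Klf5 was not tested. Of 5 endothelial markers, Pecam1 fell in both comparisons and none rose, and the list means lay between 4.57 and 5.38 on all arrays.

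The mean level of 5 epithelial markers had the same order of cell types as Klf5, but the markers did not all share it. This mean was 8.71 to 8.89 in ES cells, 4.32 to 4.53 in NPC and 5.56 to 5.59 in MEF. Between MEF and NPC, 2 of the 5 were called higher in MEF, the keratins Krt18 (2.38, limma adjusted p = 7.87e-06) and Krt14 (1.74, limma adjusted p = 7.25e-05). The share of all genes called higher there was 10.5%. Krt14 went against Klf5 relative to ES cells, with a rise of 1.57 in MEF (limma adjusted p = 9.37e-05) and a difference of -0.17 in NPC that was not called. Krt8 was 0.92 higher and not called. Epcam, at 4.17 and 4.11 in MEF and 4.08 to 4.20 in NPC, was near the bottom of the scale in both. Cdh1 was at 5.28 and 5.03 in MEF and 4.13 to 4.73 in NPC. It was higher on both MEF arrays than on any NPC array, by a difference of 0.70 (limma adjusted p = 0.0173), under the minimum. The part of these markers in the Klf5 levels was not tested.

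For each gene, the genes with the most similar profiles were found by the root mean square distance between profiles over the 8 arrays, each centred on its own mean. Pou5f1 was nearest to Zfp42 (0.231), L1td1 (0.255) and Dppa5a (0.396), and Zfp42 to L1td1 (0.194), Pou5f1 (0.231) and Fbxo15 (0.339). Nanog was nearest to Chchd10 (0.225), Mymx (0.244) and Sall4 (0.340). Sall4 was nearest to Epcam (0.194), Mymx (0.215) and Phlda2 (0.242). Esrrb was nearest to Mageb16 (0.224), Gtsf1l (0.226) and Dppa3 (0.262), and Tfcp2l1 to Apela (0.152), Morc1 (0.177) and Tcl1 (0.220). Klf4 had 8030474K03Rik (0.129), Pmm1 (0.177) and Prune2 (0.188), and Klf5 had Krt18 (0.234), Etl4 (0.240) and Phyh (0.284). The nearest genes to Klf2, Pcbd1 (0.470), Cubn (0.480) and Dmc1 (0.507), were farther away than the nearest of any other of the 9. These distances are descriptions over 8 arrays in 3 groups, and no other setting was run for them. Profiles were not scaled, so the size of a fall counts, and for dim genes this depends on the pseudocount. Those of Klf2 include NPC 1, where it was at 5.45, against 7.49 and 7.87 on NPC 2 and NPC 3.

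Sox2, the partner of Oct4 on DNA, is not among the 9 genes and is also a factor of neural precursors. It was at 12.14, 12.09 and 11.91 in ES cells, at 11.61, 10.87 and 10.72 in NPC, and at 5.56 and 5.51 in MEF. It was high in NPC, where the 9 genes fell, with a log2 difference of -0.98 that was just under the minimum (limma adjusted p = 0.00303), and it fell 91.2-fold to MEF (-6.51, limma adjusted p = 7.84e-08). Whether the NPC difference was called depended on the setting: Sox2 was called lower in NPC without NPC 1 (-1.25), without ES 3 (-1.04), with median centring (-1.11), at the deposited scaling (-1.13), with trimmed mean scaling (-1.04) and with array weights (-1.24). Tcf7l1, a repressor of the network's genes, had a difference of -0.64 in NPC that was not called, and it fell by 1.47 in MEF (limma adjusted p = 0.00049), where the deposited scaling gave -0.69, not called. These values rest on which of its 2 probe sets is brightest. The dimmer had differences of -0.21 and -0.92 and was not called in either, and without ES 1, ES 3 or NPC 1 it took the place of the other.

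Among 19 measured other transcription factors of the pluripotency network, 11 were lower and 1 higher in NPC, and 14 were lower and 1 higher in MEF, with median log2 differences of -1.84 and -2.69. Over all genes, 12.9% were called lower and 10% higher in NPC, and 12.8% and 12.2% in MEF. The largest falls in NPC among the 19 were those of Utf1 (-5.91), also an ES cell marker above, Nr0b1 (-5.56), the orphan receptor Dax1, and Mycn (-4.50). In MEF they were those of Sox2, Nr0b1 (-5.82) and Utf1 (-5.72). The gene that rose in both was Stat3, which carries the LIF signal to the nucleus, by 1.14 in NPC and 1.19 in MEF. With its probe sets averaged it was 0.70 and 0.38 and not called. The values of Mycn rest on which of its probe sets is brightest, as without ES 1 or ES 3 another was, with a difference of 5.10 and 5.02 in NPC and of 0.41 and 0.34 in MEF, none of them called.

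Among 15 measured genes known as targets of Oct4, Sox2 and Nanog in ES cells, 14 were lower in NPC and 15 in MEF, with medians of -5.98 and -6.03. Over all genes, 12.9% were called lower in NPC and 12.8% in MEF. Dppa5a, Dppa4, Tdgf1, L1td1 and Fbxo15 are also in the list of ES cell markers above, so this count is not separate from that one. Tdgf1, a co-receptor for Nodal, fell by 8.61 and 8.52, and Dppa5a by 8.12 and 8.11. Lefty1, an inhibitor of Nodal, fell by 7.06 in NPC and L1td1 by 7.20 in MEF. The target not called in NPC was Jam2, a junction protein, at 10.50 to 10.52 in ES cells and 9.90 to 10.04 in NPC (-0.51), which fell by 4.61 in MEF. Its 5 probe sets disagreed in NPC, with differences of 2.25 and 1.43 for 2 of them and of -0.97 and -1.67 for others, while all were lower in MEF. Jam2 was chosen after its values were seen.

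The 8 genes of the formative and primed states, through which epiblast cells leave naive pluripotency, moved both ways. In NPC 3 rose and 2 fell (median -0.20), and in MEF 2 rose and 4 fell (median -0.85). Over all genes, 10% were called higher in NPC and 12.2% in MEF, and 12.9% and 12.8% lower. Sox3, a neural relative of Sox2, rose by 3.92 in NPC, Sall2 by 2.99 and Pou3f1 by 2.33. Sall2 and Pou3f1 are also among the Sall and POU paralogues below, so those counts are not separate from these. Otx2 fell by 3.38 in NPC and 3.87 in MEF, and the DNA methyltransferase Dnmt3b with differences of -3.50 and -3.52. Pou3f1 fell by 3.11 in MEF, and Sall2 rose there by 1.67. Fgf5 was 1.04 higher in MEF, a call lost when its probe sets were averaged (0.46), with median centring (0.98), with trimmed mean scaling (0.90), without ES 1 (0.97) and without MEF 2 (0.94).

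In the path from LIF to the factors, 2 of 7 genes rose and 2 fell in NPC, and 5 rose and 2 fell in MEF, with medians of -0.40 and 1.17. Beside these stand the 10% and 12.2% of all genes called higher and the 12.9% and 12.8% called lower. Socs3, a feedback inhibitor that Stat3 induces, was at 10.63 to 10.69 in ES cells, 5.64 to 6.53 in NPC, and 7.99 and 8.14 in MEF, and fell by 4.66 and 2.59. The kinase gene Jak2 rose by 1.44 in NPC and 1.17 in MEF, and the phosphatase gene Ptpn11 by 1.44 and 1.18. Lifr, the LIF receptor, had a difference of -0.40 in NPC that was not called and fell by 2.01 in MEF. Il6st, for the shared receptor gp130, fell by 1.19 in NPC and rose by 1.12 in MEF, and Lif rose by 1.74 and Jak1 by 1.56 in MEF. With the mean of the probe sets, Lifr in MEF (-0.84), Il6st in NPC (-0.86) and Ptpn11 in NPC (0.49) were not called.

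The Klf paralogues, which share the zinc finger domain of Klf2, Klf4 and Klf5, did not move as a family. Of 13 measured, 5 were higher and 2 lower in NPC, and 3 were higher and 3 lower in MEF, with medians of 0.11 and 0.001. The shares of all genes called were 10% higher and 12.9% lower in NPC and 12.2% higher and 12.8% lower in MEF, so the count of 2 lower in NPC is near the share of all genes. Klf9, at 11.26 to 11.44 in ES cells, fell by 2.78 in NPC and by 1.42 in MEF, and in MEF median centring gave -0.96 and the deposited scaling -0.64, not called. Klf11 fell by 1.24 and 1.15, and its MEF difference was -0.75 and -0.43, not called, under the same scalings. Klf7 rose by 2.36 in NPC and 1.44 in MEF, and Klf6 by 1.22 and 2.79. With its probe sets averaged, Klf6 was 0.95 higher in NPC and was not called there. Klf12 rose by 3.13 in NPC, from 6.36 to 6.89 in ES cells to 9.69 to 9.77, and had a difference of 0.37 in MEF that was not called. Klf15 rose by 1.57 in NPC, with NPC 1 at 6.50 and the others at 7.72 and 7.74, and fell by 1.69 in MEF. Klf3 was 2.03 higher in NPC and 1.22 higher in MEF by its brightest probe set, but was 0.55 and -0.20, not called, when its probe sets were averaged, and 1 of them fell (-1.73 and -1.97). Between MEF and NPC, Klf6 (1.57) and Klf9 (1.35) were higher in MEF and Klf12 (-2.76) and Klf15 (-3.25) lower.

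**Figure D4:**
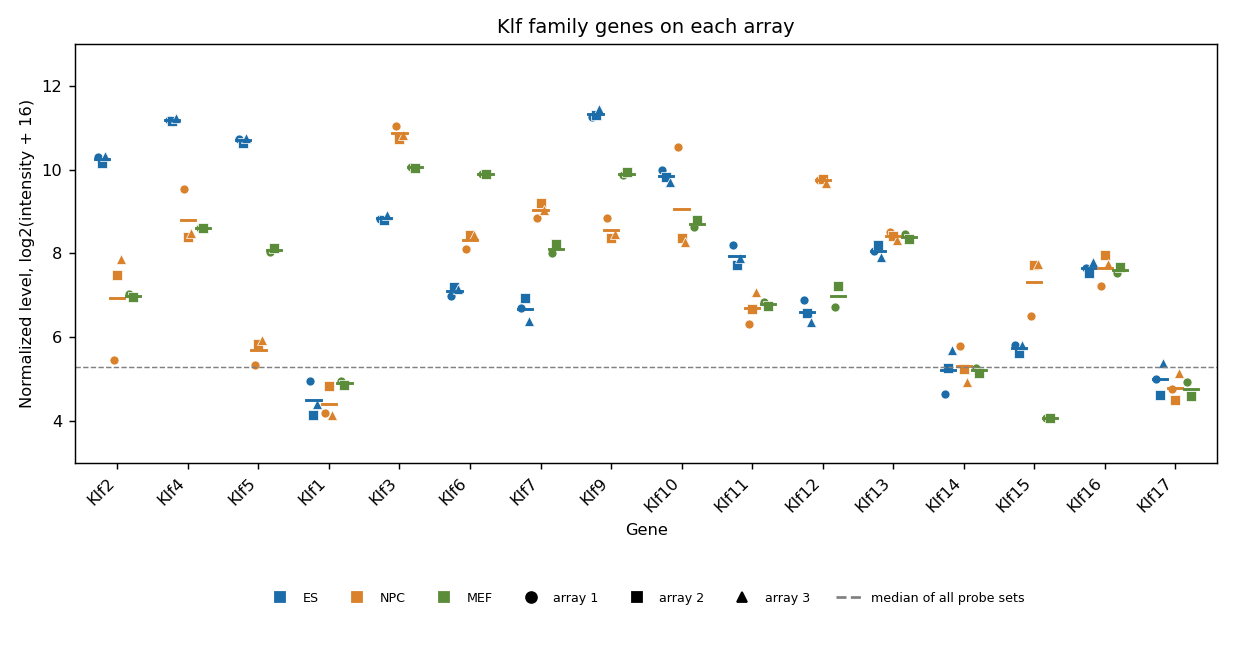
Level of Klf2, Klf4, Klf5 and the 13 measured paralogues on each array, as log2(intensity + 16) after normalization; colours are cell types, marker shapes are array numbers, short lines are group means and the dashed line is the median of all probe sets. Klf2, Klf4, Klf5, Klf9 and Klf11 are highest in ES cells, Klf12 at 9.69 to 9.77 is highest in NPC, and NPC 1 lies apart from NPC 2 and NPC 3 for Klf2, Klf4, Klf10 and Klf15.

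Of 9 measured POU paralogues of Pou5f1, 4 were higher in NPC and none was lower, and none was higher and 2 lower in MEF, with medians of 1.14 and -0.30, where 10% of all genes were called higher in NPC and 12.8% lower in MEF. Pou3f3, a POU factor of neural cells, was at 4.92 to 5.13 in ES cells and 10.16 to 10.62 in NPC, a rise of 5.29 (limma adjusted p = 1.54e-08), and lay at 5.34 and 5.29 in MEF. Pou6f1 rose by 2.39 in NPC and Pou3f2 by 1.36. Pou3f1 was at 7.60 to 7.71 in ES cells, at 8.68, 10.74 and 10.49 in NPC, and at 4.38 and 4.68 in MEF, so it rose by 2.33 in NPC and fell by 3.11 in MEF. Pou4f1 fell by 1.35 in MEF (limma adjusted p = 0.0304), and leaving out any of the ES or MEF arrays ended this call. Pou3f1, Pou3f2, Pou3f3, Pou4f1 and Pou6f1 were also lower in MEF than in NPC, by log2 differences of -5.44, -1.44, -5.02, -1.52 and -1.73. Of these calls, that of Pou4f1 ended when NPC 2, NPC 3, MEF 1 or MEF 2 was left out and in a fit of those groups alone, and that of Pou6f1 with its probe sets averaged (-0.91).

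The 3 paralogues of Sall4 each took a pattern of their own. Sall1 was at 9.41 to 9.59 in ES cells, 7.86 to 8.48 in NPC, and 5.97 and 5.95 in MEF, and fell, with differences of -1.30 and -3.52. Sall3 was at 4.33 to 4.80 in ES cells and 8.88 to 9.32 in NPC, a rise of 4.59, and near the bottom of the scale in MEF (-0.43, not called). Sall2 rose by 2.99 in NPC and 1.67 in MEF. All 3 were called lower in MEF than in NPC, where 7.95% of all genes were, Sall1 by -2.22, Sall2 by -1.31 and Sall3 by -5.02. For Sall2 median centring gave -0.81 and the deposited scaling -0.47, not called.

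Of 5 relatives of Tfcp2l1, the 3 grainyhead-like genes, which serve epithelia, were lower in both cell types, where 7.77% of all genes were. Grhl3 was at 7.42 to 7.60 in ES cells, 4.17 to 4.55 in NPC, and 4.64 and 4.37 in MEF, and fell, with differences of -3.17 and -3.03. Grhl2 fell by 1.73 and 2.88, but was -0.51 and -0.71, not called, when its probe sets were averaged, and Grhl1 fell by 1.54 and 1.81. Grhl2 was also lower in MEF than in NPC (-1.16), a call that ended with its probe sets averaged (-0.20), at the deposited scaling (-0.96), with the replicate block (-0.97), without NPC 3 (-0.92) and without MEF 1 (-1.07). The closer relatives Tfcp2 (0.61 in NPC, 0.16 in MEF) and Ubp1 (0.07 and -0.25) were not called. Ubp1 changed sign in both with median centring (-0.02 and 0.23).

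Esrra and Esrrg, the other estrogen-related receptors, were not called in any comparison. Esrra was at 7.07 to 7.14 in ES cells, 7.25 to 7.50 in NPC, and 7.21 and 7.49 in MEF, with differences of 0.31 and 0.26, and was 1.06 and called in MEF at the deposited scaling. Esrrg was at 4.12 to 5.25 on all arrays. Yy1, the zinc finger factor to which Zfp42 is related, was at 10.84 to 10.98 in ES cells, 10.28 to 10.37 in NPC, and 10.63 and 10.58 in MEF. Its differences of -0.59 in NPC and -0.31 in MEF were under the minimum, and that in MEF turned to 0.17 when arrays were centred on their medians and to 0.49 at the deposited scaling.

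**Figure D5:**
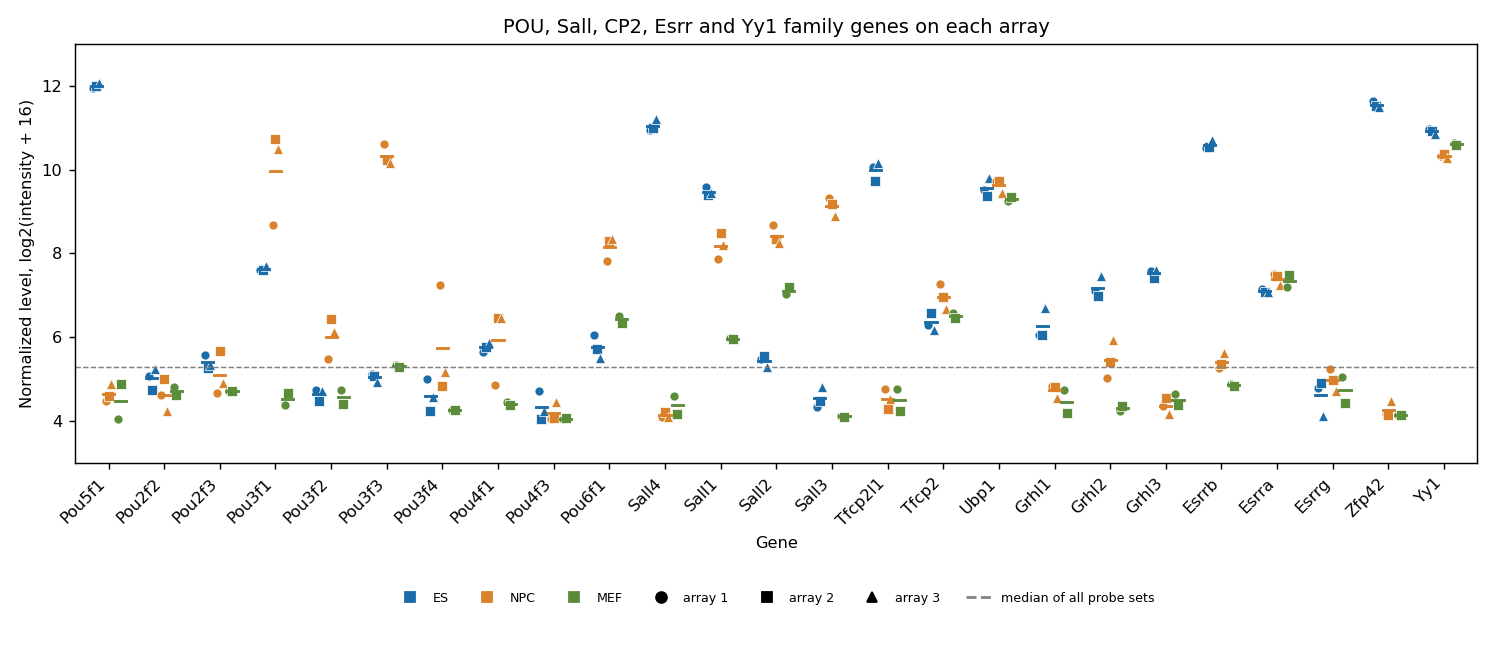
Level of Pou5f1, Sall4, Tfcp2l1, Esrrb and Zfp42, each followed by its measured paralogues, on each array, as log2(intensity + 16) after normalization; colours are cell types, marker shapes are array numbers, short lines are group means and the dashed line is the median of all probe sets. Pou5f1, Sall4, Tfcp2l1, Esrrb and Zfp42 are high in ES cells alone among the 3 cell types, while Pou3f3 and Sall3 are high in NPC and Yy1 is high in all.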

How the data were processed

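Messenger RNA was measured on 3 ES, 3 NPC and 2 MEF arrays. The deposited values are linear probe set intensity, made by the authors with GCOS 1.4 per the submitters' processing notes. How background and scaling were set is not given in the sources used here, and detection calls were not used. Deposited array medians differed 1.65-fold and trimmed means 2.10-fold between the highest and lowest array. This went with the cell type, as trimmed means were 232.4 and 231.9 in MEF and 110.9 to 152.6 on the ES and NPC arrays. Quantile normalization removes such a shift, and whether it is technical was not tested. Control probe sets were dropped, which left 45037. The log2 of the intensity plus 16 was taken and quantile normalized. A single limma model (version 3.58.1 in R 4.3.3) with a variance trend covered the 8 arrays, and the spread of the MEF arrays was thus estimated together with that of the others. Benjamini-Hochberg adjustment ran over 18193 genes, each read from its brightest probe set, or over all probe sets. The procedure was tested on simulated data.

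The 9 genes and the gene lists were chosen with earlier results of these data known. Named were all 9 genes, from each list up to 3 called genes of largest difference per direction against ES cells, Sox2, Tcf7l1, the Sall, Esrr, CP2 and Yy1 relatives, called Klf and POU paralogues, and the 3 nearest profiles. Some listed genes were not analysed here, and the counts are over those measured. Of the trophoblast markers 3 of 5 and of the primitive endoderm markers 4 of 6 were lower in NPC, and 2 of 5 and 2 of 6 in MEF. The shares of all genes called lower were 12.9% and 12.8%. Alternatives were other scalings, pseudocounts of 1 and 64, no dim genes (highest group mean under 6), other choices of probe set, variance model, weights, thresholds or arrays, and the replicate number as a term.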

Additional observations from a re-analysis of the deposited data

How the results depend on the processing

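All 9 genes stayed lower in NPC than in ES cells under every alternative run. In MEF all calls stayed, except that without probe sets of shared-sequence suffixes the log2 difference of Klf5 was -0.96. The number of the 9 genes called between MEF and NPC, 1 as reported, was 2 with a pseudocount of 1, 3 with no minimum difference, and 0 with the mean of probe sets (Klf5 0.97) or without those suffixes (Klf5 0.76). Over all 18193 genes, 2303 were called higher and 1850 lower in MEF than in NPC with a pseudocount of 1. With no minimum difference these were 3517 and 3628, and with the mean of probe sets 1652 and 1105. Without those suffixes they were 1634 and 1294 of 16591. Of the 17 probe sets of the 9 genes, 2 were called between MEF and NPC at the deposited scaling, 3 with a pseudocount of 1 and 4 with no minimum. The shares of all probe sets called under these settings were not computed. Small differences between MEF and NPC changed sign, with no call: Pou5f1 to 0.002 at the deposited scaling; Tfcp2l1 to 0.15 at that scaling, 0.037 with the mean of probe sets, 0.023 with array weights and 0.017 with the replicate block; Klf2 to -0.044 with a pseudocount of 64 and -0.58 with array weights; and Klf4 to 0.37 with median centring, 0.72 at the deposited scaling and 0.056 with array weights. Leaving out each array in turn moved these from -0.58 to 0.23 for Pou5f1, -0.28 to 0.23 for Tfcp2l1, -0.70 to 0.52 for Klf2 and -0.41 to 0.16 for Klf4. Among other genes, Ubp1 changed sign in NPC (-0.017 with median centring, -0.04 at the deposited scaling, -0.026 with the mean of probe sets and from -0.029 to 0.19 with an array left out) and in MEF (0.23 and 0.55 under those scalings). Yy1 did so in MEF (0.17, 0.49, and 0.074 with the mean of probe sets), as did Klf3 with the mean of probe sets (-0.20) and Esrrg (-0.008 with median centring, -0.059 with the replicate block, -0.12 without ES 3 and -0.18 without MEF 1). Mycn changed sign without ES 1 or ES 3, where another of its probe sets was brightest, and ran from -4.58 to 5.10 in NPC and from -5.30 to 0.41 in MEF with an array left out. Tcf7l1 in NPC ran from -0.85 to 0.23, the latter without NPC 1, where its other probe set was brightest. For the others the cause was not tested. A pseudocount of 64 also ended the calls of Klf11 and Grhl1 in both comparisons, of Klf6 and Il6st in NPC and of Klf15, Jak2, Fgf5 and Pou4f1 in MEF. With the scaling left as deposited, the median over all genes moved to 0.32 in MEF against ES cells and 0.43 against NPC, and 79.4% and 87.6% of calls were higher in MEF, with median centring 65.1% and 74.2%, and as reported 48.9% and 56.9%. Over all genes, same-numbered arrays did not deviate together (correlations of -0.02 to 0.02). These correlations cannot show an effect that same-numbered arrays share in a few genes. With the replicate block the counts of the 9 genes called stayed at 9, 9 and 1. Signal near the bottom of the scale limits the differences between NPC and MEF for Pou5f1, Nanog, Zfp42, Sall4 and Tfcp2l1, and Esrrb was near it in MEF.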

Other observations

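The probe sets of Mycn, a Myc family gene of the pluripotency list, did not move together, and the values are given here because they stood out after they were seen. The brightest over the 8 arrays was at 10.85, 10.73 and 10.71 in ES cells, 6.04, 6.36 and 6.40 in NPC, and 5.57 and 5.44 in MEF. Another probe set was at 4.47, 5.85 and 4.31 in ES cells, at 4.30, 13.17 and 13.08 in NPC, and at 5.40 and 5.60 in MEF, so that NPC 2 and NPC 3 were high and NPC 1 was low. Its deposited intensity was 3.35 on NPC 1 and 8583 and 7880 on NPC 2 and NPC 3. The third was at 7.56 to 7.57 in ES cells and 4.16 to 5.14 elsewhere. Why NPC 1 differs was not tested.

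NPC 1 also stood apart for some other genes of the lists, which were chosen after their values were seen. Klf10 was at 10.53 on NPC 1 and 8.36 and 8.27 on NPC 2 and NPC 3, and Pou3f4 at 7.24 against 4.82 and 5.17. Lef1, a partner of beta-catenin on DNA, was at 4.46 on NPC 1 and 6.94 and 6.97 on the others. Gbx2 (6.65 against 5.20 and 5.39) and Nr5a2 (6.72 against 5.61 and 5.71), both of the pluripotency list, were higher on NPC 1.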
